A study of Mus musculus with 18 samples.

Results

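The genes described here are 9 developmental regulators of limb fields and of Alx- and Prrx-expressing mesenchyme: Tbx4, Tbx5, Fgf10, Pitx1, Prrx1, Prrx2, Alx1, Alx4 and Hand2. They are 9 of the 53465 genes in the deposited mouse table and were selected on their names by someone who had already seen region and genotype results of these libraries. Which values bore on that choice is not recorded, so every region and genotype value below describes chosen genes and is not independent evidence about them. RNA was sequenced from 9 mouse embryos collected at embryonic day 9, with 20 to 24 somites. Of these, 5 were labelled Control (their alleles and Cre status are not given in the sources used here) and 4 DKO, in which Meis1 and Meis2 were conditionally deleted with Delta1Cre. Each embryo gave 2 poly(A) libraries. One was from a posterior piece (the axial bud with its 10 to 12 newest somites) and one from an anterior piece (the rest of the axis that carries somites, without the head levels that have none). Each piece was thus represented by 5 control and 4 DKO libraries.

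Limb buds arise from lateral plate mesoderm at fixed levels of the trunk. Tbx5, a T-box factor, is needed to start the forelimb bud, whereas its close relative Tbx4 and the homeodomain factor Pitx1 mark the hindlimb field, and Fgf10 is the mesenchymal ligand that drives outgrowth through the overlying ectoderm. Hand2, a basic helix-loop-helix factor, sets posterior polarity in the early bud and also acts in the heart, branchial arches and sympathetic precursors. Prrx1, Prrx2, Alx1 and Alx4 encode paired-type homeodomain factors of craniofacial and limb mesenchyme, and Alx4 restricts posterior signalling to one side of the bud. Meis1 and Meis2 encode homeodomain cofactors that are themselves expressed in the proximal limb. Dll1 (Delta1), whose regulatory sequence drives the Cre, is expressed chiefly in presomitic and newly segmented paraxial mesoderm. Limb mesenchyme has another origin, and the libraries are bulk samples of whole dissected pieces.

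Promoter sequences were looked up because Tbx4 and Hand2 are among the members with a large regional difference. RefSeq promoter windows (build GRCm38.p6, 250 bases before to 50 after a transcript start) were matched for 5 members, Prrx1, Prrx2, Hand2, Tbx4 and Fgf10. For Tbx4, Prrx2 and Fgf10 the window lies inside the annotated gene span, downstream of its first base, so it does not cover the first annotated start. The 250 bases upstream are shown for Tbx4 (chr11:85896515-85896764, plus strand) and Hand2 (chr8:57320733-57320982, plus strand), 5′ to 3′, with any TATAA match on either strand in capitals.
Tbx4: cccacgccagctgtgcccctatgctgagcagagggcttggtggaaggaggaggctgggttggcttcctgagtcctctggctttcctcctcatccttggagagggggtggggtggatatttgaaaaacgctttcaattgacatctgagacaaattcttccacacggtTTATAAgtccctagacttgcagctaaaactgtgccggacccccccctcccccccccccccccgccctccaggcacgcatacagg
Hand2: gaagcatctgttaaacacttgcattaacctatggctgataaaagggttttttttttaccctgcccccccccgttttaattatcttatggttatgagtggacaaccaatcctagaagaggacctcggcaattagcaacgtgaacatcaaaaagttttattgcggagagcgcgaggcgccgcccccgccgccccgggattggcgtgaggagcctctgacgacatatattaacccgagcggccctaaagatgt
TATAA, a motif added after the data were seen, matched in the window of 1 of the 5 members (Tbx4) and in 24.9% of all 32851 promoter windows. The Meis core motif TGACAG, searched on both strands, was in 0 of the 5 windows and in 19.2% of all windows. The Hox-Pbx motif TGATNNAT was in 0 of 5 and in 8.8% of all windows. None of these motifs contains another, and a missing match says only that these letters are not in this window.

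In the GRCm38 annotation used here (GENCODE M21) all 9 members are protein-coding genes. Tbx4 (ENSMUSG00000000094) lies on chromosome 11 from 85886422 to 85916097 and Tbx5 (ENSMUSG00000018263) on chromosome 5 from 119832668 to 119885219, both on the plus strand. Pitx1 (ENSMUSG00000021506) spans 55825051 to 55836192 of chromosome 13 (minus strand), and Fgf10 (ENSMUSG00000021732) on the plus strand of the same chromosome from 118669791 to 118792115. Hand2 (ENSMUSG00000038193) is on the plus strand of chromosome 8 from 57320983 to 57324633. Prrx1 (ENSMUSG00000026586) spans 163245119 to 163313710 of chromosome 1 (minus strand), and Prrx2 (ENSMUSG00000039476) on the plus strand of chromosome 2 from 30834972 to 30881251. Alx1 (ENSMUSG00000036602) spans 102998707 to 103030215 of chromosome 10 (minus strand), and Alx4 (ENSMUSG00000040310) on the plus strand of chromosome 2 from 93642384 to 93681339. Whether counting used the read strand is not given in the sources used here, so reads shared with an antisense gene are uncertain for Hand2, Pitx1 and Fgf10, and reads shared with a gene on the same strand are uncertain for Pitx1 and Alx1 under any strand setting. Hand2 shares 461 exon bases with the antisense Hand2os1 (0.583 to 2.56 CPM in anterior and 2.27 to 6.03 CPM in posterior libraries). Pitx1 shares 165 with the antisense Gm47071 (1.70 to 2.40 CPM anterior, 3.24 to 10.8 CPM posterior) and 108 with the same-strand Gm28760 (at most 0.800 CPM). Alx1 shares 243 with the same-strand Gm17028 (at most 0.158 CPM), and Fgf10 shares 123 with the antisense Gm16263 (at most 0.0349 CPM).

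Libraries held 12.7 to 38.2 megacounts of expected counts (RSEM estimates of reads per gene). Levels are given as CPM, counts per megacount after TMM scaling (trimmed mean of M values), and 3 counts corresponded to 0.0790 to 0.233 CPM. Both deleted genes were still counted in DKO libraries. Meis1 was at 113 to 135 CPM in anterior controls against 89.7 to 111 in anterior DKO, and at 59.6 to 99.8 against 46.7 to 71.9 in the posterior piece. Meis2 was at 177 to 203 against 130 to 157 CPM anterior and at 117 to 162 against 91.1 to 116 CPM posterior. Gene counts do not show whether those reads cover the deleted exons. Control embryo 1, labelled female, had at most 0.340 CPM of Xist and 151 and 162 CPM of 4 summed Y-linked genes in its libraries, which goes against its sex label. No result of the members lost its call when control 1 was left out. The labels name no parents or litters, so p-values measure the spread between these embryos.

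The 9 genes covered a wide range of levels. Per kilobase of exon, posterior controls were ordered Pitx1 (17.3 ± 4.42 CPM per kb, SD, n = 5), Prrx2 (12.7 ± 1.67), Hand2 (8.64 ± 2.13), Tbx4 (5.72 ± 2.23), Prrx1 (4.54 ± 1.60), Alx4 (1.53 ± 0.751), Alx1 (1.34 ± 0.244), Fgf10 (1.08 ± 0.129) and Tbx5 (0.0870 ± 0.0476). Within this order the neighbours Pitx1 and Prrx2, Hand2 and Tbx4, Tbx4 and Prrx1, Alx4 and Alx1, and Alx1 and Fgf10 had overlapping ranges of mean ± SD, and the other 3 steps did not. In anterior controls Prrx2 (9.55 ± 3.45 CPM per kb) and Prrx1 (5.18 ± 1.82) led. Alx4, Hand2, Fgf10, Alx1 and Tbx5 followed at means of 1.29 to 0.790 CPM per kb that overlapped within their SD, and Pitx1 (0.275 ± 0.346) and Tbx4 (0.0312 ± 0.0385) came last. In anterior DKO libraries Prrx2 (8.59 ± 0.942 CPM per kb, n = 4), Prrx1 (3.16 ± 0.411) and Alx4 (1.61 ± 0.480) led and stood apart from each other by more than their SD. In posterior DKO libraries Pitx1 (16.1 ± 7.18), Hand2 (8.81 ± 4.16) and Prrx2 (8.66 ± 1.67) had the highest means, and the ranges of mean ± SD of all 3 overlapped.

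**Figure D1:**
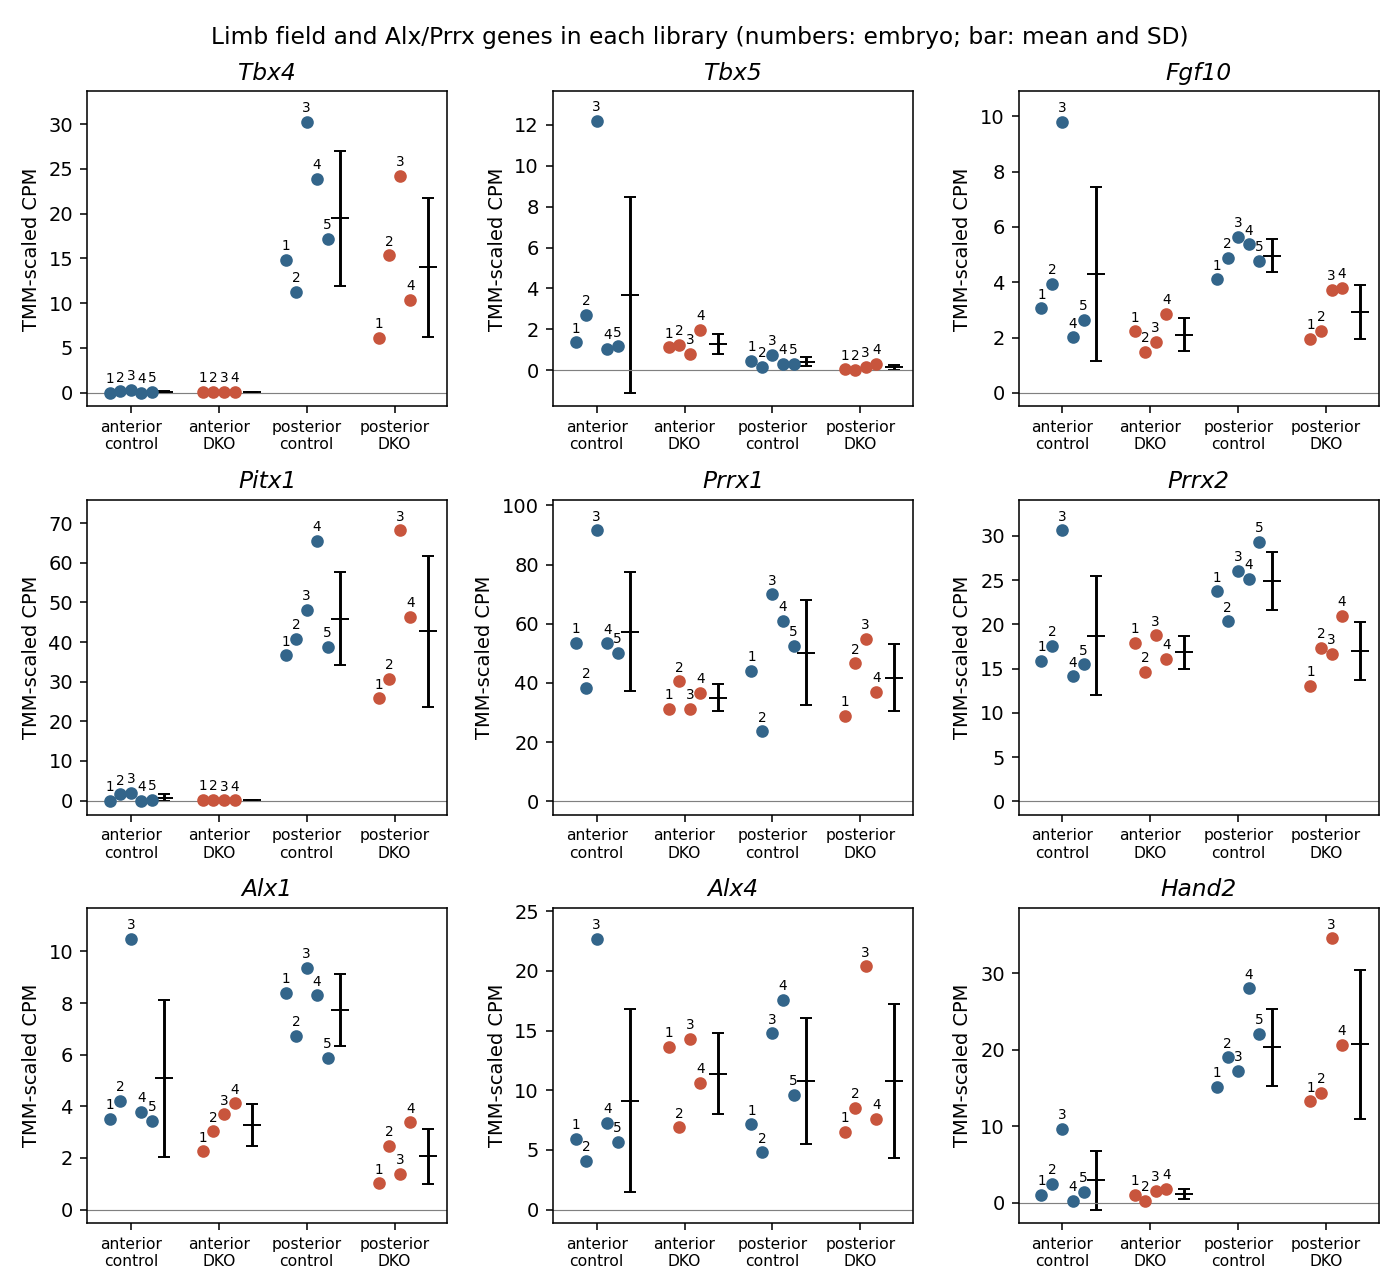
TMM-scaled CPM (y axis) of each of the 9 genes in each library, by group (x axis), with points numbered by embryo and a bar for the mean ± SD of each group. Tbx4 and Pitx1 are near 0 in the anterior groups, and anterior control 3 is the highest anterior library for all 9 genes.

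Tbx4, the hindlimb-field T-box factor, was found almost entirely in posterior libraries. It was at 14.8, 11.2, 30.2, 23.9 and 17.2 CPM in posterior controls 1 to 5 and at 6.09, 15.3, 24.2 and 10.4 CPM in posterior DKO 1 to 4. In the anterior piece it was at 0, 0.155, 0.311, 0 and 0.0647 CPM for controls, and DKO was at 0.0571, 0.103, 0.0577 and 0.104 CPM, which is 0 to 4 counts per library. Every posterior library was above every anterior one. Posterior over anterior, Tbx4 was higher by 7.51 on the log2 scale in controls (SE 0.488, adjusted p = 3.88e-07) and by 7.37 in DKO (SE 0.564, adjusted p = 1.65e-05). These come from edgeR's quasi-likelihood test with Benjamini-Hochberg adjustment over all genes tested, which also gave all other adjusted p-values here unless DESeq2 is named. Since the anterior counts were so few, the ratio of summed counts, scaled for library size, was also taken, and was 188 in controls (95% exact counting interval 99.0 to 412) and 170 in DKO (85.8 to 394). Reads carried no molecular identifiers, so such intervals cover counting error only.

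Pitx1, the other hindlimb-field factor, followed the same regional order. Posterior controls 1 to 5 were at 36.6, 40.7, 48.1, 65.4 and 38.7 CPM and posterior DKO 1 to 4 at 25.8, 30.8, 68.2 and 46.3 CPM. Anterior controls were at 0, 1.59, 1.86, 0 and 0.194 CPM and anterior DKO at 0.200, 0.103, 0.0577 and 0.0345 CPM. The anterior controls were thus uneven, with 41 counts in control 2, 24 in control 3 and 0 to 3 in the others, and posterior levels did not overlap them. Posterior over anterior, Pitx1 was higher by 5.93 on the log2 scale in controls (SE 0.528, adjusted p = 4.75e-06) and by 8.56 in DKO (SE 0.488, adjusted p = 2.79e-06). The control value was 6.75 without control embryo 2 and 6.36 without control embryo 3, and the DKO value was 9.50 without DKO embryo 1, and each passed the threshold. The scaled ratio of summed counts was 60.6 in controls (95% interval 47.7 to 78.1) and 367 in DKO (205 to 736). Of the 68 anterior counts behind the control ratio 41 came from control 2, and of the 11 behind the DKO ratio 7 came from DKO 1.

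Tbx5, the forelimb-field T-box factor, ran the other way. It was at 1.36, 2.71, 12.2, 1.03 and 1.17 CPM in anterior controls 1 to 5 and at 1.11, 1.23, 0.808 and 1.97 CPM in anterior DKO 1 to 4. In posterior libraries it was at 0.474, 0.172, 0.756, 0.306 and 0.327 CPM in controls and at 0.0378, 0.0349, 0.160 and 0.307 CPM in DKO, from 1 to 18 counts. Every anterior library exceeded every posterior library, and anterior control 3 was far above the rest. Tbx5 was lower in the posterior piece, with log2 fold changes of −3.13 in controls (SE 0.743, adjusted p = 0.00764) and −3.35 in DKO (SE 0.569, adjusted p = 0.00215). Without control embryo 3 the control value was −2.26 and still passed the threshold.

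Hand2 was higher in the posterior piece. It was at 15.2, 19.0, 17.2, 28.0 and 22.1 CPM in posterior controls and at 13.3, 14.4, 34.6 and 20.6 CPM in posterior DKO. In anterior libraries it was at 1.02, 2.52, 9.71, 0.230 and 1.42 CPM in controls and at 1.09, 0.309, 1.56 and 1.86 CPM in DKO. Groups of the same genotype did not overlap between regions. The log2 fold change was 2.85 in controls (SE 0.587, adjusted p = 0.00310) and 4.07 in DKO (SE 0.449, adjusted p = 1.52e-04), and without control embryo 3 the control value was 3.95.

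Fgf10, the outgrowth ligand, did not pass the threshold between regions. Anterior controls were at 3.06, 3.95, 9.79, 2.01 and 2.65 CPM and posterior controls at 4.11, 4.89, 5.64, 5.37 and 4.77 CPM. Anterior DKO libraries were at 2.23, 1.49, 1.85 and 2.87 CPM and posterior DKO libraries at 1.97, 2.23, 3.73 and 3.79 CPM. The posterior value was the higher in 4 of 5 control embryos, with control 3 the exception, and in 3 of 4 DKO embryos. The log2 fold change was 0.23 in controls (SE 0.351, adjusted p = 0.699) and 0.45 in DKO (SE 0.285, adjusted p = 0.342). Without control embryo 3 the control value was 0.70 and passed the threshold (adjusted p = 0.0408). It was 0.39 with the embryo as a replicate block, 0.12 without control 5 and 0.015 without control 4, and the DKO value was 0.26 without DKO embryo 3.

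Among the paired-type genes, Prrx1 had the highest CPM and did not pass the threshold between pieces. It was at 53.4, 38.2, 91.5, 53.4 and 50.03 CPM in anterior controls and at 44.2, 23.6, 69.9, 61.0 and 52.6 CPM in posterior controls. In DKO it was at 31.1, 40.5, 31.3 and 36.7 CPM in the anterior and at 28.8, 46.6, 54.9 and 36.9 CPM in the posterior piece. The regions overlapped in both genotypes, with log2 fold changes of −0.18 (SE 0.271, adjusted p = 0.686) and 0.26 (SE 0.178, adjusted p = 0.387). The control value ran from −0.10 without control embryo 3 and −0.12 without control 2 to −0.29 without control 4, and the DKO value was 0.057 without DKO embryo 3. Prrx2 was at 15.8, 17.5, 30.6, 14.1 and 15.5 CPM in anterior controls and at 23.7, 20.3, 26.1, 25.1 and 29.3 CPM in posterior controls. Its DKO libraries were at 17.9, 14.6, 18.7 and 16.1 CPM anterior and at 13.01, 17.3, 16.6 and 21.0 CPM posterior. All posterior controls exceeded the anterior controls other than control 3. The Prrx2 log2 fold change in controls was 0.42 (SE 0.188, adjusted p = 0.133). With the embryo as a replicate block it was 0.45 (adjusted p = 0.0318), and without control 3 it was 0.64 (adjusted p = 0.00307). In DKO it was 0.01 (SE 0.147, adjusted p = 0.967).

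Alx1, a craniofacial mesenchyme factor, was at 3.51, 4.22, 10.5, 3.79 and 3.43 CPM in anterior controls and at 8.40, 6.74, 9.37, 8.29 and 5.88 CPM in posterior controls. In DKO it was at 2.26, 3.03, 3.69 and 4.11 CPM in the anterior and at 1.02, 2.48, 1.39 and 3.38 CPM in the posterior piece. The posterior level was the higher in 4 of 5 control embryos and in 0 of 4 DKO embryos. The log2 fold change was 0.63 in controls (SE 0.291, adjusted p = 0.143), 0.72 with the embryo as a replicate block (adjusted p = 0.0137) and 0.97 without control 3 (adjusted p = 0.00156). In DKO it was −0.66 (SE 0.356, adjusted p = 0.260). Alx4 was at 5.94, 4.06, 22.7, 7.29 and 5.70 CPM in anterior controls and at 7.14, 4.81, 14.8, 17.6 and 9.61 CPM in posterior controls. Its DKO libraries were at 13.7, 6.89, 14.3 and 10.6 CPM anterior and at 6.54, 8.51, 20.4 and 7.62 CPM posterior. These groups overlapped throughout, with log2 fold changes of 0.27 in controls (SE 0.467, adjusted p = 0.740) and −0.09 in DKO (SE 0.359, adjusted p = 0.914), and the control value was 0.77 without control embryo 3.

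**Figure D2:**
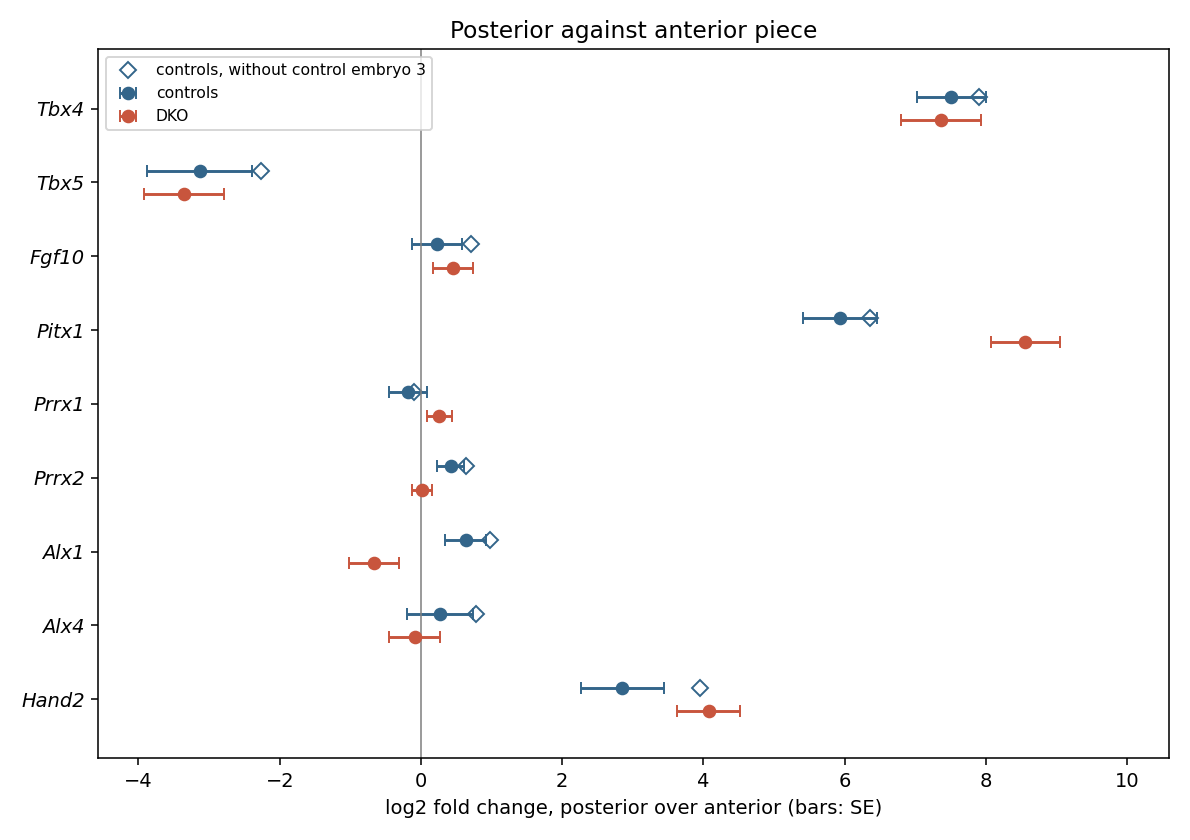
Log2 fold change of posterior over anterior libraries (x axis) for each gene (y axis) in controls and in DKO, with bars for the SE and open diamonds for controls without embryo 3. Tbx4, Pitx1 and Hand2 lie to the right in both genotypes and Tbx5 to the left, and the other 5 genes lie within 1 of 0.

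Counted over the 9 genes in controls, 3 were higher in the posterior piece, where 12.1% of all 15294 genes tested were, and 1 was lower, where 13.3% were. The same 4 did not overlap between regions, against 9.42% of all genes not overlapping and higher and 10.7% not overlapping and lower. In DKO the same 4 genes passed in the same directions (3 higher against 8.76% of 15777 genes, 1 lower against 9.70%), and again did not overlap, against 10.9% of all genes higher and 12.7% lower. The median log2 fold change of the members was 0.42 in controls (−0.01 over all genes) and 0.26 in DKO (0.01 over all genes), and these medians were 0.77 without control embryo 3 and 0.076 without DKO embryo 3. With the embryo as a replicate block the control count was 6, in a fit that called 33.6% of all 15294 genes, and the DKO count was 4, in a fit that called 19.0% of 15777. Without control embryo 3 the control count was 7, against 20.4% of 15549 genes.

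The pieces also differed in markers of cell types. Markers of lateral plate and splanchnic mesoderm summed to 32.5 to 75.8 CPM in anterior and 126 to 158 CPM in posterior controls (11 genes, 0 of them at 0 in control libraries). Of the 11, 8 were higher posterior in controls and 0 lower, led by Osr1 (2.32 log2, adjusted p = 3.27e-05), Tcf21 (1.90, adjusted p = 4.65e-06) and Wt1 (1.87, adjusted p = 5.83e-05). In DKO, 6 of 10 tested were higher and 0 lower, led by Hand1 (4.13, adjusted p = 0.00263), Tcf21 (2.65, adjusted p = 0.00224) and Bmp4 (2.30, adjusted p = 7.93e-05). Heart muscle markers ran the other way, at 23.8 to 45.6 CPM in anterior and 6.15 to 30.9 CPM in posterior controls, with 3 of 5 tested lower posterior. How much these proportions contribute to the regional values of the 9 genes was not tested, and in bulk RNA fewer cells of a type and less RNA per cell cannot be told apart.

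Other regulators of the limb bud divided by region. Over all genes tested, 12.1% were higher and 13.3% lower posterior in controls, and 8.76% and 9.70% in DKO, for each list here. An unadjusted p below 0.05 was found for 20 of 24 regulators tested in controls, a count whose share over all genes was not taken. Of these 24, 11 were higher and 4 lower in the posterior piece, with a median of 0.32. The apical ridge ligand Fgf8 (2.95, adjusted p = 8.12e-07) and the FGF-induced ETS factors Etv4 (2.27, adjusted p = 1.73e-05) and Etv5 (1.82, adjusted p = 8.96e-07) had the largest of these differences among genes averaging 50 counts or more, and the axial bud also makes Fgf8. The lower ones included Lmx1b, the dorsal limb factor (−1.13, adjusted p = 0.0126), Irx5 (−0.77, adjusted p = 0.00524) and Irx3 (−0.49, adjusted p = 0.00553). In DKO 11 of 25 were higher and 5 lower, led by Hand1 (4.13), given above with the lateral plate list, Fgf8 (3.23, adjusted p = 7.87e-07) and Etv4 (2.64, adjusted p = 1.29e-05). Lmx1b (−0.92, adjusted p = 1.81e-04), Irx5 (−0.76, adjusted p = 6.88e-04) and Irx3 (−0.54, adjusted p = 0.00101) were lower. Among Alx-related homeodomain genes and head mesenchyme factors, 2 of 13 were higher and 2 lower in controls and 3 of 12 were higher and 3 lower in DKO. Dlx5, a distal-less gene of ectoderm and arches, was higher in both (2.26, adjusted p = 6.33e-06 and 2.44, adjusted p = 2.66e-05). Tfap2b, a neural crest and head factor, was lower in both (−0.93, adjusted p = 3.12e-04 and −1.11, adjusted p = 1.94e-04). Lhx6, a jaw mesenchyme factor (−1.10, adjusted p = 0.0337), and Foxd1 (−0.57, adjusted p = 0.00575) were lower in DKO. Somite derivative markers gave 3 higher and 6 lower of 10 in controls and 1 and 3 of 10 in DKO. Neural crest markers gave 0 higher and 4 lower of 6, and 0 and 5 of 6. Surface ectoderm markers gave 5 higher and 1 lower of 8, and 6 and 1 of 8. The lists share genes, so their counts are not separate: Hand1 is also in the lateral plate list, and Fgf8 and Dlx5 are also in the surface ectoderm list. These region comparisons and the genotype comparisons share libraries.

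**Figure D3:**
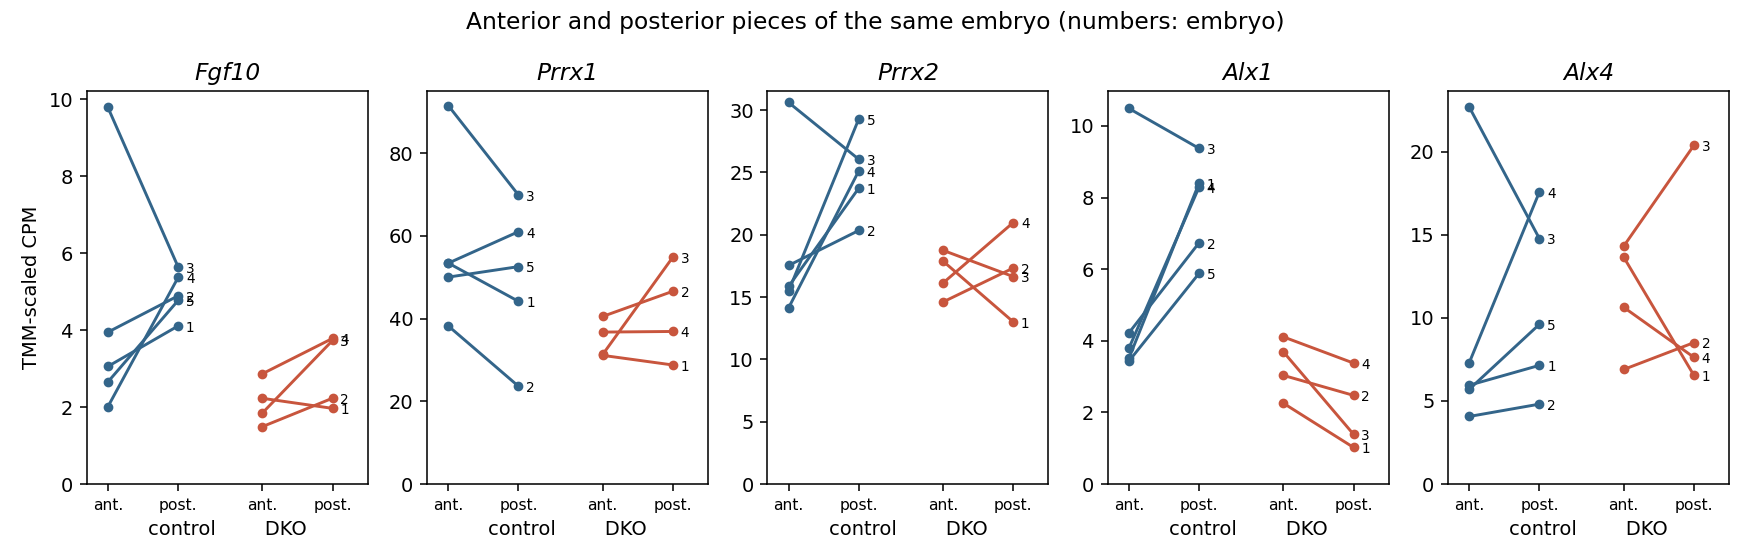
TMM-scaled CPM (y axis) of the 5 genes that did not pass the threshold between regions in the main edgeR fit, which ignores the embryo. A line joins the anterior and posterior pieces of each embryo (x axis). With the embryo as a replicate block, Prrx2 and Alx1 passed in controls. The posterior Alx1 value is the higher in 4 of 5 control embryos and the lower in 4 of 4 DKO embryos.

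DKO and control libraries were then compared within each piece. In the anterior piece 7 of the 9 genes had enough counts to be tested (Tbx4 and Pitx1 did not), and 0 passed the edgeR threshold, as did 0.0394% of the 15238 genes tested. An unadjusted p below 0.05 was found for 2 of the 7, against 13% of all genes. DESeq2 called 0 of the members and 1.94% of all genes. The 2 were Prrx1 (−0.71, SE 0.206, unadjusted p = 0.00562, edgeR adjusted p = 0.203) and Fgf10 (−0.99, SE 0.425, unadjusted p = 0.0402, adjusted p = 0.362). For Prrx1, control 2 at 38.2 CPM lay below DKO 2 at 40.5 CPM, so the groups overlapped. No member had anterior groups that did not overlap, whereas 2.62% of all genes were lower in DKO without overlap. The remaining values were −1.46 for Tbx5 (SE 0.720), −1.25 for Hand2 (SE 0.820), −0.62 for Alx1 (SE 0.344), −0.15 for Prrx2 (SE 0.204) and 0.35 for Alx4 (SE 0.444). The median of the 7 was −0.71, against 0.00 over all genes, and was −0.20 without control embryo 3.

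These anterior values leaned on control embryo 3. Without it Tbx5 was at −0.30, Hand2 at −0.13, Alx1 at −0.20, Fgf10 at −0.46 and Prrx1 at −0.48. Prrx2 turned to 0.09, and Alx4 was at 0.99 (adjusted p = 0.190 by edgeR), while without control 2 Alx4 was at 0.15. Without it the 4 other anterior controls averaged 1.57 ± 0.773 CPM for Tbx5 (SD, n = 4), 1.30 ± 0.952 for Hand2, 2.92 ± 0.811 for Fgf10 and 3.74 ± 0.356 for Alx1. Control 3 itself was at 7.79, 7.49, 3.36 and 2.81 times those means.

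**Figure D4:**
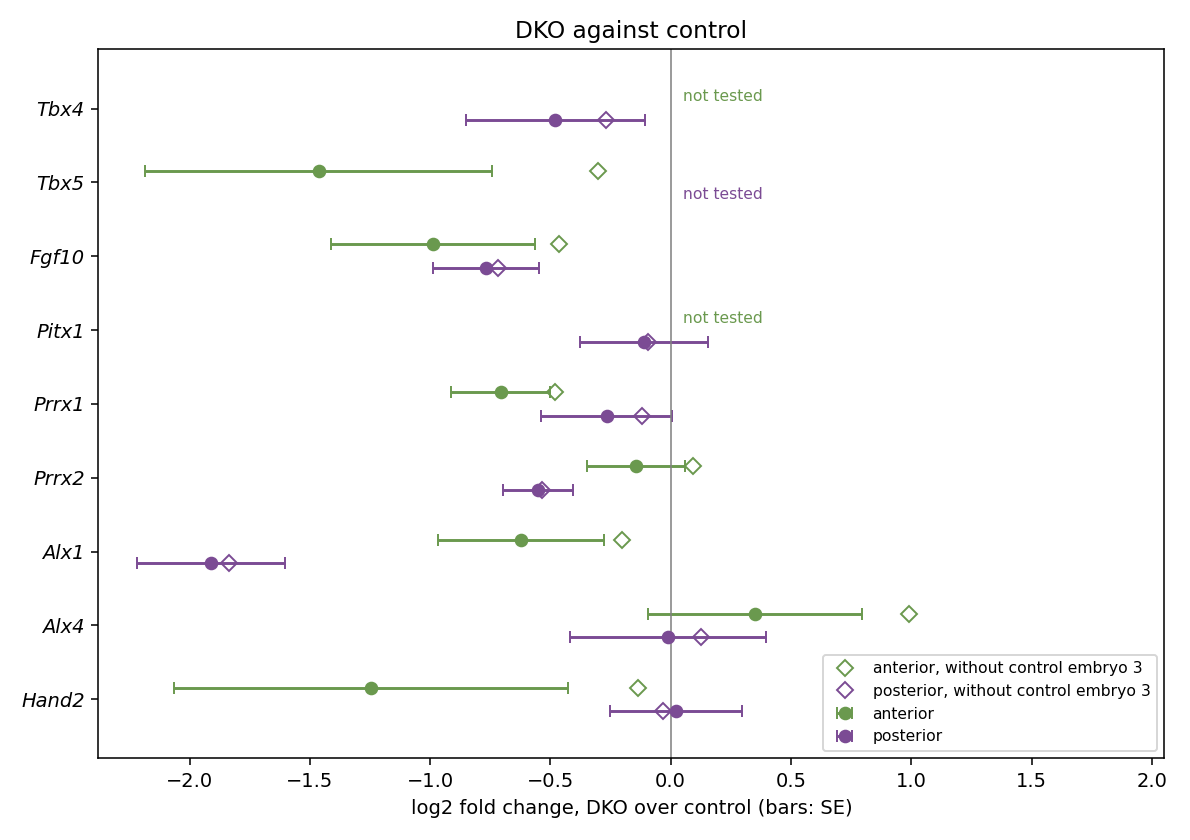
Log2 fold change of DKO over control libraries (x axis) for each gene (y axis) in the anterior and the posterior piece, with bars for the SE and open diamonds for the value without control embryo 3. Alx1 is the farthest below 0 in the posterior piece, and most anterior values move toward 0 without that embryo.

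In the posterior piece 8 members were tested (Tbx5 had too few counts), and 0 passed the edgeR threshold, as did 0.0126% of 15936 genes. An unadjusted p below 0.05 was found for 3 of the 8, against 11% of all genes, and DESeq2 called 2 members and 1.01% of all genes. All 3 had lower values in DKO. Alx1 had the lowest p, at −1.91 (SE 0.308, unadjusted p = 5.91e-05, edgeR adjusted p = 0.0978), rank 9 by p among the genes tested. It averaged 7.74 ± 1.40 CPM in controls (SD, n = 5) and 2.07 ± 1.07 in DKO (n = 4), with the lowest control at 5.88 and the highest DKO library at 3.38 CPM. Its call depended on the method: the adjusted p was 2.21e-07 with DESeq2, 0.0106 with no filter on low counts and 0.0371 with all 18 libraries in 1 edgeR fit, and it reached 0.307 without DKO embryo 1. Its value stayed between −2.24 and −1.68 in these and the other alternatives.

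Prrx2 was at −0.55 in the posterior piece (SE 0.144, unadjusted p = 0.00271, edgeR adjusted p = 0.282), with an adjusted p of 0.0225 by DESeq2. Only DKO 4, at 21.0 CPM, lay above the lowest control, at 20.3 CPM. Fgf10 was at −0.77 (SE 0.220, unadjusted p = 0.00490, edgeR adjusted p = 0.338, DESeq2 adjusted p = 0.0674). Its DKO libraries reached 3.79 CPM at most and its controls started at 4.11 CPM. Alx1 and Fgf10 were the 2 of 8 members whose posterior groups did not overlap, both lower in DKO, against 2.12% of all genes. The hindlimb-field genes gave −0.48 for Tbx4 (SE 0.371) and −0.11 for Pitx1 (SE 0.266). Prrx1 was at −0.27 (SE 0.272), Alx4 at −0.01 (SE 0.409) and Hand2 at 0.02 (SE 0.273), each with overlapping groups. Tbx4 was at −0.23 without DKO embryo 1, −0.27 without control embryo 3 and −0.87 without DKO embryo 3. Prrx1 was at −0.12 without control embryo 3 or DKO embryo 1, −0.19 without control embryo 4, −0.42 without DKO embryo 3 and −0.45 without control embryo 2. Neither gene passed the threshold in any alternative run. The median of the 8 was −0.37, against 0.01 over all genes, and was −0.18 without DKO embryo 1 and −0.19 without control embryo 3.

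Marker sums were also compared between genotypes in the posterior piece. The lateral plate and splanchnic sum was 126 to 158 CPM in posterior controls and 97.9 to 119 CPM in posterior DKO, with no overlap. Of its 11 genes 0 passed the edgeR threshold, 4 had an unadjusted p below 0.05 and 2 were called by DESeq2, with a median of −0.31. The surface ectoderm sum was 192 to 272 CPM in controls and 278 to 343 CPM in DKO (0 of 8 called by edgeR, 3 with unadjusted p below 0.05, 1 by DESeq2). The keratins Krt8 (means of 83.6 against 130 CPM) and Krt18 (55.3 against 77.6 CPM) were its largest parts. Trp63 was at 12.2 against 13.3 CPM, and all 8 genes had a positive log2 fold change. The somite derivative sum was 352 to 474 against 196 to 376 CPM, with overlap (0 of 10 called by edgeR, 4 with unadjusted p below 0.05, 1 by DESeq2), and no marker of these 3 lists was at 0 in a posterior library. Heart muscle markers gave 0 of 7 called by either tool and 0 with unadjusted p below 0.05, and neural crest markers 0 of 5 by either tool and 1. The part of these cell types in the lower Alx1, Fgf10 and Prrx2 values was not tested. Of the other limb bud regulators, 0 of 25 were called posterior by either tool (5 with unadjusted p below 0.05, median 0.09). In the anterior piece edgeR called 0 of 24 and DESeq2 6, with 10 at an unadjusted p below 0.05 and a median of −0.10. Of Alx-related and head mesenchyme genes, edgeR called 0 in either piece and DESeq2 1 in each, with 3 of 12 (anterior) and 2 of 13 (posterior) at an unadjusted p below 0.05.

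In the anterior piece the lateral plate sum was 32.5 to 75.8 CPM in controls and 20.3 to 52.1 CPM in DKO (0 of 11 called by edgeR, 4 with unadjusted p below 0.05, 2 by DESeq2, median −0.85), with 1 gene at 0 in anterior DKO 2. The somite derivative sum was 367 to 424 against 263 to 353 CPM, with no overlap (0 of 10 called by edgeR, 8 with unadjusted p below 0.05, 3 by DESeq2). The heart muscle sum was 23.8 to 45.6 against 28.7 to 59.3 CPM (0 of 5 called by either tool, 2 with unadjusted p below 0.05). The neural crest sum was 177 to 209 against 199 to 251 CPM (0 of 6 called by edgeR, 3 with unadjusted p below 0.05, 3 by DESeq2). Surface ectoderm markers gave 0 of 8 called by either tool, with 1 at an unadjusted p below 0.05.

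Whether the genotype difference itself differed between pieces was tested as an interaction in all 18 libraries. For the 9 genes, 0 passed by edgeR (0% of 16428 genes did), 2 had an unadjusted p below 0.05 (3.45% of all genes did) and 0 passed by DESeq2 (0.0609% of all genes did). The 2 were Alx1 at −1.29 (SE 0.490, unadjusted p = 0.0169, edgeR adjusted p = 0.999), more negative in the posterior piece, and Pitx1 at 2.61 (SE 1.12, unadjusted p = 0.0313, adjusted p = 0.999). Of the 68 anterior Pitx1 counts of controls, 41 came from control 2 and 24 from control 3, and the interaction was 1.81 without control 2 and 2.18 without control 3. With the embryo as a replicate block Alx1 was at −1.45 (adjusted p = 0.561) and Pitx1 at 2.50 (adjusted p = 0.851). The anterior and posterior genotype values come from the same embryos and are given side by side for that reason.

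Anterior control 3 was the highest of the 9 anterior libraries for 7 of the 7 members tested in that piece, as it was for 13.6% of all 15238 genes tested. It also had the highest CPM for Tbx4 and Pitx1, which had too few counts to be tested. For Tbx4 that rested on 4 counts, the same number as in the larger library of control 2. It was also the highest for 12 of the 25 other limb bud regulators, 5 of the 11 lateral plate markers, 7 of the 17 Alx-related and head mesenchyme genes, 2 of the 8 heart muscle markers, 2 of the 8 surface ectoderm markers, 1 of the 10 somite derivative markers and 0 of the 6 neural crest markers. Its lateral plate sum of 75.8 CPM was the highest of the anterior libraries, followed by 63.9 CPM in control 2. Its heart muscle sum was 43.0 CPM, within the range of the other anterior libraries, and its total of 12.7 megacounts was the lowest of the 18. Their part in its high values was not tested. In the posterior piece control 3 was highest for 5 members (Tbx4, Tbx5, Fgf10, Prrx1 and Alx1), DKO 3 for 3 (Pitx1, Alx4 and Hand2) and control 5 for Prrx2. Control 3 had 24 somites and DKO 3 had 20.

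**Figure D5:**
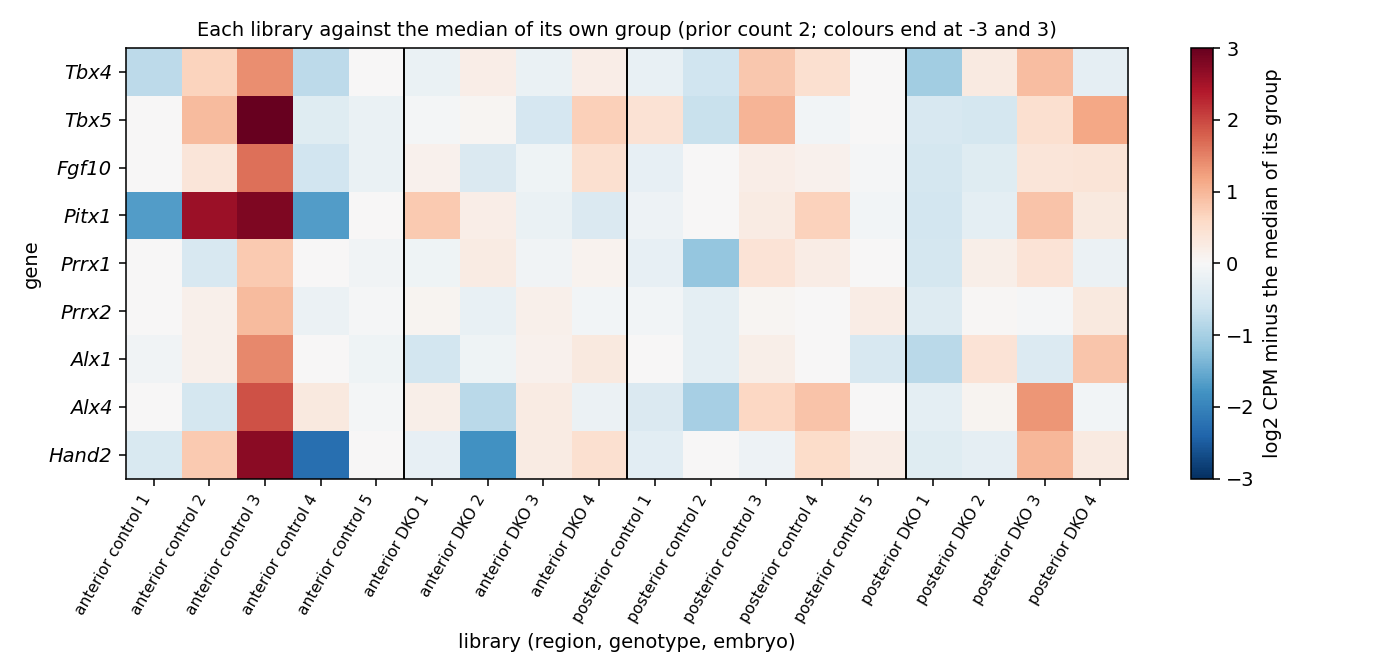
Log2 CPM of each gene (y axis) in each library (x axis) minus the median of the library's own group, in colour. The column of anterior control 3 is above 0 for every gene, and posterior DKO 3 is above 0 for 7 genes and below 0 for Alx1 and, slightly, for Prrx2.

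Somite number was then compared with level, since limb buds emerge at these stages. Over the 9 embryos of a piece, 15 relations were computed for members averaging 10 counts or more, and 0 passed the threshold by exact two-sided permutation. With both genotypes pooled, the lowest p was for Hand2 in the posterior piece (Pearson r = −0.61, exact permutation p = 0.0857, adjusted p = 0.825, Spearman rho = −0.50, exact permutation p = 0.178, adjusted p = 0.955). Without the 2 embryos farthest from the median somite number, r was −0.49 (n = 7, exact permutation p = 0.274). With level and somite number centred within genotype, the lowest p was for anterior Prrx1 (r = 0.75, exact permutation p = 0.00930, adjusted p = 0.139, rho = 0.80, exact permutation p = 0.0123, adjusted p = 0.184), and 0 of 15 passed. Pooled over genotypes, anterior Prrx1 had an r of 0.51 (exact permutation p = 0.158), and of 0.31 without the 2 farthest embryos (n = 7, exact permutation p = 0.510).

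Genes whose log2 CPM was most like that of each member were taken from 11810 protein-coding candidates over the 18 libraries. These coefficients mix the regional difference with the spread between embryos. Tbx4 was most like Hoxa13 (r = 0.99) and Gnal (0.98), Pitx1 like Hoxc9 and Dsc2 (both 0.98), and Hand2 like Capn6 (0.96) and Hoxd10 (0.95). Hoxa13, Hoxc9 and Hoxd10 are 5′ Hox genes of the caudal axis. For the other members the coefficients were lower. Tbx5 was most like Asb4 and Kctd12 (both 0.87), and Fgf10 like Alpk3 (0.76) and Gata6 (0.75). Prrx1 was most like Sertad4 and Ppfibp2 (both 0.85), and Prrx2 was close to Rdh10 (0.78), a retinol dehydrogenase. Alx1 was most like Rdh10 (0.83) and Runx1t1 (0.82), and Alx4 like Mnt (0.77) and Hsd17b7 (0.76).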

How the data were processed

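Poly(A) RNA libraries of 9 embryos were read from a single end at 61 bases, per the labels' protocols. The authors deposited a table of RSEM expected counts per Ensembl gene, not scaled between libraries. The submitters' processing notes name CASAVA, cutadapt, RSEM and GRCm38, and the annotation is Ensembl release 91 per the deposited table's name. The aligner, versions and strand setting are not given in the sources used here. Of 53465 identifiers, 53360 matched GENCODE M21 (same build) and 105 did not.

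Expected counts were rounded to whole numbers and fitted with edgeR 4.0.16 in R 4.3.3 (filterByExpr with a minimum count of 10 and total of 15, TMM, glmQLFit, glmQLFTest, Benjamini-Hochberg over all genes tested, threshold 0.05). SE is the absolute log2 fold change divided by the square root of F, with a prior count of 2 in log2 CPM. Code was checked on simulated data. The members, gene lists and tests were chosen with earlier results of these data known. The naming rule took all members, Meis1 and Meis2, the 2 most similar genes per member and, per list and comparison, up to 3 higher and 3 lower genes past the threshold that averaged 50 counts or more. Lists of other cell types are given as counts of genes called and as summed CPM. The lateral plate genes named in the closing section, and Krt8, Krt18 and Trp63, were chosen after their values were seen, outside this rule. One gene that the rule names is not reported here. Alternatives were DESeq2 1.42.0, other scaling and filters, covariates, all 18 libraries in 1 fit, the embryo as a block and leaving out each embryo.

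Pieces with the same genotype, somite number and sex label were taken as 1 embryo. With group means removed, the pieces of an embryo correlated at 0.256 to 0.570 over genes in 9 pairs, and pieces of different embryos at −0.283 to 0.159. Comparison of member proteins was not run.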

Additional observations from a re-analysis of the deposited data

Results flagged for a closer look

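In 8 of the 36 sets made of 1 gene in 1 group of libraries, a single library lay far from the others. Its gap to the nearest neighbour, divided by the range of the set, was beyond Dixon's 95% critical value. The nominal rate of 1 set in 20 assumes independent sets of normally distributed values. These sets share libraries, so that rate is no benchmark here. In 7 of them the library was anterior control 3. It was at 12.2 CPM for Tbx5, 9.79 CPM for Fgf10, 91.5 CPM for Prrx1, 30.6 CPM for Prrx2, 10.5 CPM for Alx1, 22.7 CPM for Alx4 and 9.71 CPM for Hand2, each the highest of the 5 anterior controls. These 7 values come from 1 library and are not separate observations. The other was posterior DKO 3, at 20.4 CPM for Alx4.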

How the results depend on the processing

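Of 592 fold changes of the members under alternatives, 558 kept their direction and side of the threshold, 9 passed it newly, 0 lost it and 25 changed sign, in 10 results; none of these 10 passed the threshold. Of 36 mean levels 0 moved by more than 1 SD on raw library totals, and of 30 Pearson correlations with somite number 0 reversed, while Spearman's rho changed sign in 8 of 30. The count of members passing for posterior DKO against control was 2 with DESeq2 (161 of all 15931 genes passed), 1 with no filter (14 of 31069) and 1 with all 18 libraries in 1 fit (51 of 16428), and 0 in each fit leaving out an embryo. The count for region in controls was 4 to 7 when each embryo was left out (2922 to 3377 of all genes, against 1854 higher and 2030 lower with all embryos), and 6 with the embryo as a replicate block (the paired fit, 5136 of 15294 genes), which added Prrx2 and Alx1 and changed no other call. Hand2 in posterior DKO against control was −0.019 with somite number as covariate.

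Leaving out each embryo gave these ranges for results that changed sign. DKO against control ran from −0.23 to 0.093 for Prrx2 (anterior), and from −0.43 to 0.070 for Pitx1, −0.51 to 0.24 for Alx4 and −0.34 to 0.18 for Hand2 (posterior). Region gave −0.059 to 0.77 for Alx4 in controls, and −0.47 to 0.20 for Alx4 and −0.13 to 0.16 for Prrx2 in DKO. The interaction gave −0.63 to 0.23 for Tbx4, −1.08 to 0.14 for Tbx5 and −0.26 to 0.44 for Fgf10. The cause was not tested beyond the embryo left out. Depth limits Tbx4 and Pitx1 in anterior and Tbx5 in posterior libraries, where most counts were under 20.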

Other observations

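Markers of the coelomic lining and splanchnic mesoderm, named after their values were seen, had lower posterior levels in DKO for some genes and not others. Wt1, a mesothelial zinc-finger factor, was at 16.4 ± 3.002 CPM in posterior controls (SD, n = 5) and 4.49 ± 4.11 CPM in posterior DKO (n = 4). The lowest control was at 11.8 and the highest DKO library at 10.2 CPM. Gata5 was at 3.79 ± 1.37 and 0.970 ± 0.508 CPM, and Gata6 at 12.7 ± 1.83 and 8.04 ± 1.12 CPM, also with no overlap. By edgeR their log2 fold changes were −1.84 (adjusted p = 0.292), −1.94 (adjusted p = 0.196) and −0.65 (adjusted p = 0.196), none past the threshold. Of the 11 genes of that list, 8 had a negative and 3 a positive posterior log2 fold change, the 3 being Tcf21 (0.21), Tbx20 (0.078) and Foxf2 (0.060), which did not pass either.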
